A study of Mus musculus with 11 samples.

Results

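The superoxide dismutases, catalase, the glutathione peroxidases and the mitochondrial peroxiredoxin Prdx3 are the enzymes that clear superoxide and peroxides in each compartment of the cell. They were taken from the raw count table by matching its Ensembl identifiers to 10 mouse gene symbols, of which 9 had a row among 15113 genes. Gpx7 was not analysed here. All 9 passed the filter on low counts, with 74 to 14236 counts per library.

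Messenger RNA was measured in C2C12, a mouse skeletal myoblast line whose cells fuse into myotubes, at passages 2 to 5. The cells had been differentiated and are labelled as early-stage myotubes in both groups. The shDRP1 group (n = 5) carried a short hairpin RNA that targets Drp1, the GTPase of mitochondrial division encoded by Dnm1l, and the shRandom group (n = 6) carried a random hairpin. No further treatment or allele is named, both groups are a hairpin-carrying form of 1 cell line, and whether each library is its own culture is not stated. The p-values therefore rest on library-to-library spread, which could be technical.

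Superoxide dismutases turn superoxide into hydrogen peroxide, and catalase, the glutathione peroxidases and the peroxiredoxins reduce that peroxide further. Each compartment has its own set. Sod1 (copper and zinc) and Gpx1 work mainly in the cytosol, Sod2 (manganese) and Prdx3 in the mitochondrial matrix, Cat in the peroxisome, Gpx8 at the membrane of the endoplasmic reticulum, and Sod3 and Gpx3 outside the cell after secretion. Gpx4 reduces lipid peroxides in membranes and restrains ferroptosis. In muscle, contraction and respiration both produce superoxide, and these enzymes set how much of it persists.

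Gpx1, Gpx3 and Gpx4 are selenoenzymes, in which a TGA codon inside the reading frame is read as selenocysteine, while Gpx8 has a cysteine codon at the same place. The stretches of coding DNA around that codon are shown because the 3 selenoenzymes did not move alike. The codon is in capitals. It lies at chr9:108339451-108339453 in Gpx1, chr11:54907256-54907258 in Gpx3 and chr10:80054737-80054739 in Gpx4, all on the plus strand, and at chr13:113045661-113045663 in Gpx8 on the minus strand of GRCm38. The sequences are the coding strand of GENCODE M21 transcripts, 51 bases each, and the stretch of Gpx3 joins 2 exons.
Gpx1: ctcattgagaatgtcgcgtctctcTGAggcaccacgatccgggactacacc
Gpx3: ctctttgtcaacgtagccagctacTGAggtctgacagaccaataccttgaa
Gpx4: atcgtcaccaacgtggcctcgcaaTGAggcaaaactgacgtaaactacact
Gpx8: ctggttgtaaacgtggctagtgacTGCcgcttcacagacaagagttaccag
The first 3 codons are annotated as selenocysteine. With the same TGA codon, Gpx1 was higher in shDRP1 libraries, Gpx3 was lower and Gpx4 did not pass the test, while Gpx8, with the cysteine codon, was higher.

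Library totals ran from 12277622 to 20706327 counts in shDRP1 and from 15702942 to 23082617 in shRandom. Dnm1l, the targeted gene, stood at 14.5 to 21.0 CPM (each count as a share of its TMM-scaled library size) in shDRP1 libraries, against 67.1 to 86.3 CPM in shRandom libraries, with a log2 fold change of -2.07 (SE 0.11, adjusted p = 2.7e-10, edgeR quasi-likelihood test). The label of early-stage myotubes was borne by both groups, but all 7 myotube markers measured were lower in shDRP1, and their summed level was 69.5 to 98.0 CPM in shDRP1, against 10932 to 12339 CPM in shRandom. Of the smooth muscle markers, 3 of 4 were measured and Myh11 was not. Cnn1 and Acta2 were called higher and Smtn was not called. Their summed level was 7647 to 9572 CPM in shDRP1, against 2505 to 3082 CPM in shRandom. Most of that sum was Acta2, at 7343 to 9297 CPM in shDRP1 and 2431 to 3011 CPM in shRandom. Macrophage markers, 2 of 5 measured, summed to 0.989 to 1.68 CPM in shDRP1 and 1.78 to 2.75 CPM in shRandom, and epithelial ones, 2 of 4 measured, to 1.03 to 2.03 CPM and 2.94 to 4.14 CPM in the same order. Of the myoblast markers, Myf5 was higher and Pax7, Myod1 and Des lower, with a sum of 86.6 to 127.2 CPM in shDRP1 and 810.3 to 1110 CPM in shRandom. Of the endothelial markers Tek alone was measured, at no more than 0.567 CPM in any library, and no adipocyte marker was measured. The part of these marker shifts in the results on the enzymes was not tested. In bulk libraries, fewer cells of a type and less RNA per cell cannot be told apart.

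Of the 9 enzymes, 3 were higher (Gpx1, Gpx8 and Cat) and 3 lower (Gpx3, Sod3 and Sod1) in shDRP1 at an adjusted p of 0.05, and 3 did not pass (Gpx4, Sod2 and Prdx3). Among all 13025 genes tested, 67.1% were called, 33.9% higher and 33.3% lower, so the count of 6 called enzymes is near the background. The groups did not overlap for 5 of the 9, against 48.9% of all genes: Gpx1 and Gpx8 lay wholly higher (2 of 9, against 23.5% of all genes) and Gpx3, Sod3 and Sod1 wholly lower (3 of 9, against 25.4%). The median log2 fold change was -0.01 for the enzymes and 0.03 for all genes, and the median size of the log2 fold change, without its sign, was 0.17 for the enzymes and 0.47 for all genes. The changes of at least 2-fold were those of Gpx3 and Sod3, 2 of 9 enzymes, against 24.9% of all genes. Both were lower by at least 4-fold, which held for 7.82% of all genes.

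**Figure D1:**
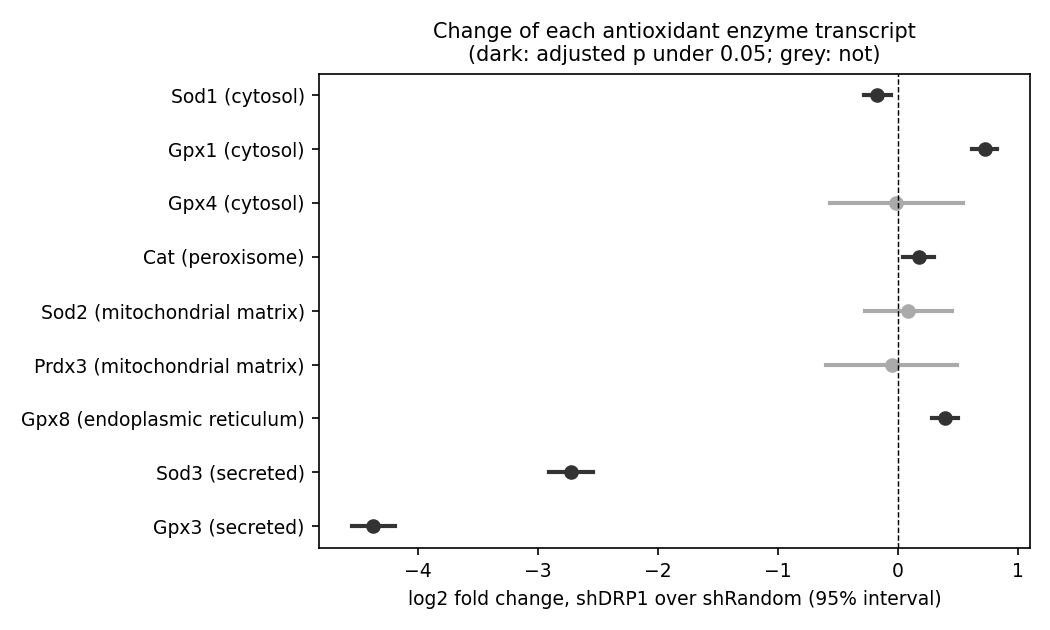
Log2 fold change, shDRP1 over shRandom, of each enzyme (point) with its 95% interval (bar), named with its compartment down the page; dark marks passed an adjusted p of 0.05 and grey ones did not. Gpx3 at -4.37 and Sod3 at -2.72 lie far left of 0, and the other 7 lie between -0.17 and 0.72.

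The secreted enzymes carried the large differences. Gpx3, the plasma glutathione peroxidase (ENSMUSG00000018339, GRCm38 chromosome 11, 54902453 to 54910377, plus strand), had 7.71, 5.72, 6.33, 6.69 and 6.22 CPM in shDRP1 replicates 1 to 5, against a lowest value of 117.4, a median of 137.0 and a highest value of 152.3 CPM in shRandom. Every shDRP1 library was thus far below every shRandom library, and the spread within each group was small beside the gap. Its mean was 6.54 ± 0.743 CPM (SD, n = 5) in shDRP1 and 135.8 ± 11.1 CPM (SD, n = 6) in shRandom, so that 4.81% of the shRandom mean was present. On the log2 scale the change was -4.37 (SE 0.09) with an adjusted p of 2.6e-14 by edgeR's quasi-likelihood test.

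Sod3, the dismutase that binds the cell surface and matrix (ENSMUSG00000072941, GRCm38 chromosome 5, 52363791 to 52371418, plus strand), had 20.1, 17.9, 25.2, 22.2 and 20.9 CPM in shDRP1 replicates 1 to 5. In shRandom it ran from 123.1 CPM, with a median of 142.3, to 160.1 CPM. The groups were apart here as well, with the highest shDRP1 library far under the lowest shRandom library. Means were 21.3 ± 2.73 CPM (SD, n = 5) in shDRP1 and 140.8 ± 12.9 CPM (SD, n = 6) in shRandom, and edgeR gave a log2 fold change of -2.72 (SE 0.09, adjusted p = 3.9e-12).

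QuantSeq makes 1 tag near the 3' end of each transcript, so CPM was summed over genes without division by length. Together the secreted pair summed to 27.8 ± 2.89 CPM (SD, n = 5) in shDRP1 and 276.7 ± 21.5 CPM (SD, n = 6) in shRandom, 10.05% of the shRandom mean. Sod3 made up 3.25% ± 0.289 (SD, n = 5) of the counts of the 3 dismutases in shDRP1 and 16.8% ± 0.986 (SD, n = 6) in shRandom. Gpx3 made up 0.947% ± 0.129 (SD, n = 5) of the counts of the 4 glutathione peroxidases in shDRP1 and 23.0% ± 1.98 (SD, n = 6) in shRandom, while Gpx1 made up 66.4% ± 0.572 and 47.2% ± 1.02 in the same groups. These shares are not independent, since a lower share of Gpx3 by itself raises that of Gpx1. The enzymes that stay inside the cell, 7 of the 9, summed to 1421 ± 59.5 CPM (SD, n = 5) in shDRP1 and 1250.4 ± 39.5 CPM (SD, n = 6) in shRandom. All 9 summed to 1448 ± 61.8 CPM in shDRP1 and 1527 ± 48.5 CPM in shRandom. These sums are descriptions, with no test.

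**Figure D2:**
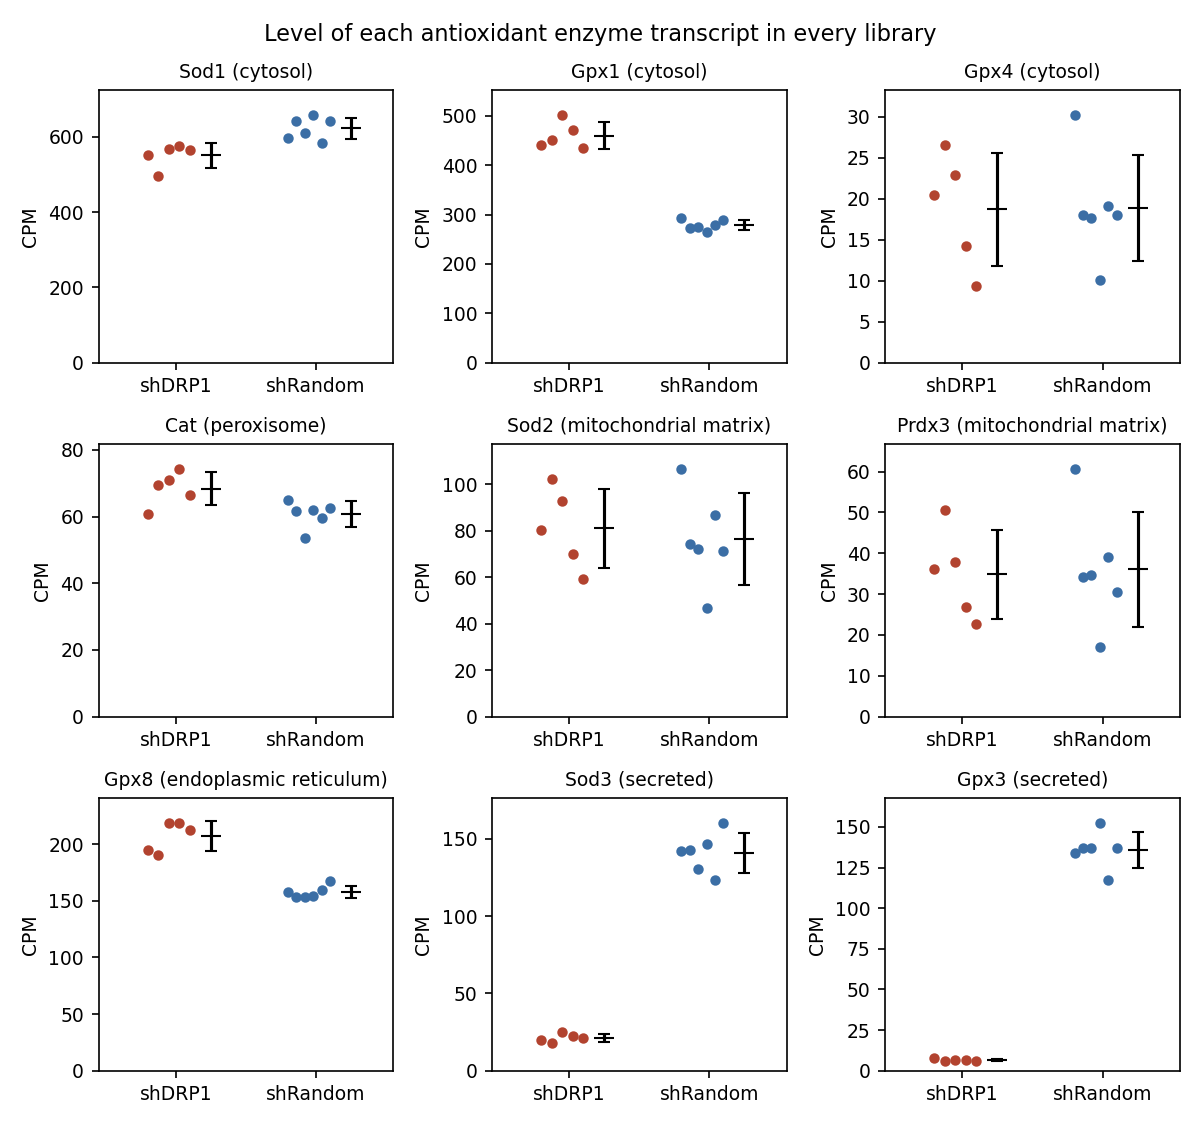
Level in CPM of each of the 9 enzymes in every library (points), with the mean and SD of each group (black), shDRP1 left of shRandom and every axis from 0. Gpx3 and Sod3 sit far lower in shDRP1, Gpx1 and Gpx8 sit higher without overlap, and Gpx4, Sod2 and Prdx3 are spread widely in both groups.

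In the cytosol the dismutase and the peroxidase differed in opposite directions. Gpx1, the most widespread glutathione peroxidase (ENSMUSG00000063856, GRCm38 chromosome 9, 108338903 to 108340343, plus strand), had 440.7, 452.0, 501.2, 470.3 and 435.4 CPM in shDRP1 replicates 1 to 5, against 264.0 CPM at the lowest, 277.2 at the median and 293.7 at the highest in shRandom. All shDRP1 libraries were above all shRandom libraries. Means were 459.9 ± 26.7 CPM (SD, n = 5) in shDRP1 and 279.0 ± 10.9 CPM (SD, n = 6) in shRandom, with a log2 fold change of 0.72 (SE 0.05, adjusted p = 2.4e-08, edgeR quasi-likelihood test), a 1.65-fold ratio of means.

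Sod1 (ENSMUSG00000022982, GRCm38 chromosome 16, 90220754 to 90226329, plus strand) had 550.4, 494.5, 568.002, 576.5 and 565.7 CPM in shDRP1 replicates 1 to 5, against 584.5, 625.3 and 656.9 CPM as the lowest, median and highest values in shRandom. The groups came close without overlapping, and the difference was small, with a mean in shDRP1 at 88.6% of that in shRandom. The edgeR test put the log2 fold change at -0.17 (SE 0.06, adjusted p = 0.0148). The call was lost under other scalings: with library totals alone the value was -0.075 (adjusted p = 0.213) and with upper-quartile scaling -0.090 (adjusted p = 0.186). Those scalings move the median log2 fold change of all genes to 0.13 and 0.12, against 0.03 with TMM, and relative to it Sod1 was lower under each.

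Gpx4 (ENSMUSG00000075706, GRCm38 chromosome 10, 80047166 to 80056439, plus strand) had 20.5, 26.5, 22.9, 14.2 and 9.31 CPM in shDRP1 replicates 1 to 5, against 10.1, 18.0 and 30.2 CPM as the lowest, median and highest values in shRandom. The groups overlapped nearly throughout, and only replicate 5 of shDRP1 fell just below the shRandom range. The log2 fold change was -0.01 with a 95% interval from -0.56 to 0.54 (adjusted p = 0.970, edgeR quasi-likelihood test), and changes of either sign lie inside that interval. A pseudogene, Gpx4-ps2, carries the name of this gene, and how its reads were divided is uncertain. Pseudogenes were sought only by such names, so those named otherwise were not checked for Gpx4 or any other enzyme.

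Catalase, the tetrameric haem enzyme of the peroxisome (Cat, ENSMUSG00000027187, GRCm38 chromosome 2, 103453849 to 103485160, minus strand), had 60.9, 69.4, 70.9, 74.2 and 66.3 CPM in shDRP1 replicates 1 to 5, against 53.6, 61.8 and 65.0 CPM as the lowest, median and highest values in shRandom. Replicate 1 of shDRP1 lay inside the shRandom range and the other 4 lay above it. By edgeR, Cat had a log2 fold change of 0.17 (SE 0.07, adjusted p = 0.0356). The call was lost without shRandom replicate 2 (adjusted p = 0.0508), 3 (0.105) or 5 (0.079), and without shDRP1 replicate 2 (0.0757), 3 (0.074) or 4 (0.0964), all by edgeR. It was also lost with median-ratio scaling (adjusted p = 0.0605), DESeq2 (0.0531) and no low-count filter (0.0539), and it stayed called in 10 of 22 alternatives, over which the adjusted p ran from 0.00293 to 0.105.

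At the endoplasmic reticulum, Gpx8, a membrane-bound peroxidase without selenium (ENSMUSG00000021760, GRCm38 chromosome 13, 113042753 to 113046410, minus strand), had 195.1, 190.2, 218.2, 218.3 and 212.7 CPM in shDRP1 replicates 1 to 5. In shRandom its lowest, median and highest values were 153.1, 155.8 and 167.1 CPM. No shDRP1 library reached down to the shRandom range. Its log2 fold change of 0.39 (SE 0.06, adjusted p = 1.8e-05 by edgeR) corresponds to a 1.31-fold ratio of means.

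The enzymes of the mitochondrial matrix did not pass the test. Sod2, the manganese dismutase (ENSMUSG00000006818, GRCm38 chromosome 17, 13006846 to 13040063, plus strand), had 80.2, 102.5, 92.7, 70.2 and 59.5 CPM in shDRP1 replicates 1 to 5, against 46.6, 73.2 and 106.5 CPM as the lowest, median and highest values in shRandom. Prdx3, the peroxiredoxin of the matrix (ENSMUSG00000024997, GRCm38 chromosome 19, 60864051 to 60874556, minus strand), had 36.1, 50.7, 37.8, 26.8 and 22.7 CPM in shDRP1 replicates 1 to 5, against 17.1, 34.4 and 60.6 CPM in the same order in shRandom. For both genes the shRandom range took in every shDRP1 library. The log2 fold change of Sod2 was 0.09 with a 95% interval from -0.28 to 0.45 (adjusted p = 0.699), and that of Prdx3 was -0.05 with an interval from -0.60 to 0.49 (adjusted p = 0.876, both edgeR quasi-likelihood test). A p that misses the threshold does not show that the levels were alike.

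That spread had a pattern. Gpx4, Sod2 and Prdx3 were each highest in replicate 2 and lowest in replicate 5 of shDRP1, and each highest in replicate 1 and lowest in replicate 4 of shRandom. The highest library stood over the lowest by 2.85-fold for Gpx4, 1.72-fold for Sod2 and 2.23-fold for Prdx3 in shDRP1, and by 3.0-fold, 2.28-fold and 3.54-fold in shRandom. Among 7887 genes with at least 5 CPM in shDRP1 and 10 CPM in shRandom, 89.7% to 98.0% had a lower coefficient of variation than these 3 genes in shDRP1, and 96.6% to 99.2% in shRandom. The same measure was 16.8% to 28.9% for Sod1, Gpx1, Cat and Gpx8 in shDRP1 and 2.81% to 24.2% in shRandom. Sod3 and Gpx3 lay between, at 65.2% and 58.0% in shDRP1 and 50.3% and 41.6% in shRandom.

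The pooled share of counts from Gm42418, mt-Rnr1 and mt-Rnr2, called the ribosomal RNA share here, also differed between libraries. It was 6.63%, 4.55%, 4.53%, 7.08% and 8.72% in shDRP1 replicates 1 to 5, and 4.14%, 6.34%, 7.10%, 7.14%, 7.13% and 6.63% in shRandom replicates 1 to 6. In shDRP1 the 2 libraries with the lowest share had the 2 highest levels of all 3 genes, and replicate 5, with the highest share, had the lowest. In shRandom, replicate 1 had the lowest share and the highest levels, whereas replicates 3, 4 and 5 had nearly equal shares and different levels. With the share as a covariate, an alternative added after seeing the data, the standard error of the log2 fold change fell to 0.14 for Gpx4, 0.12 for Sod2 and 0.19 for Prdx3, against 0.28, 0.18 and 0.28 without it. Their values were -0.08, 0.06 and -0.08 (adjusted p = 0.607, 0.672 and 0.708, edgeR), and the 6 calls of the other enzymes held. What sets this spread was not tested.

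**Figure D3:**
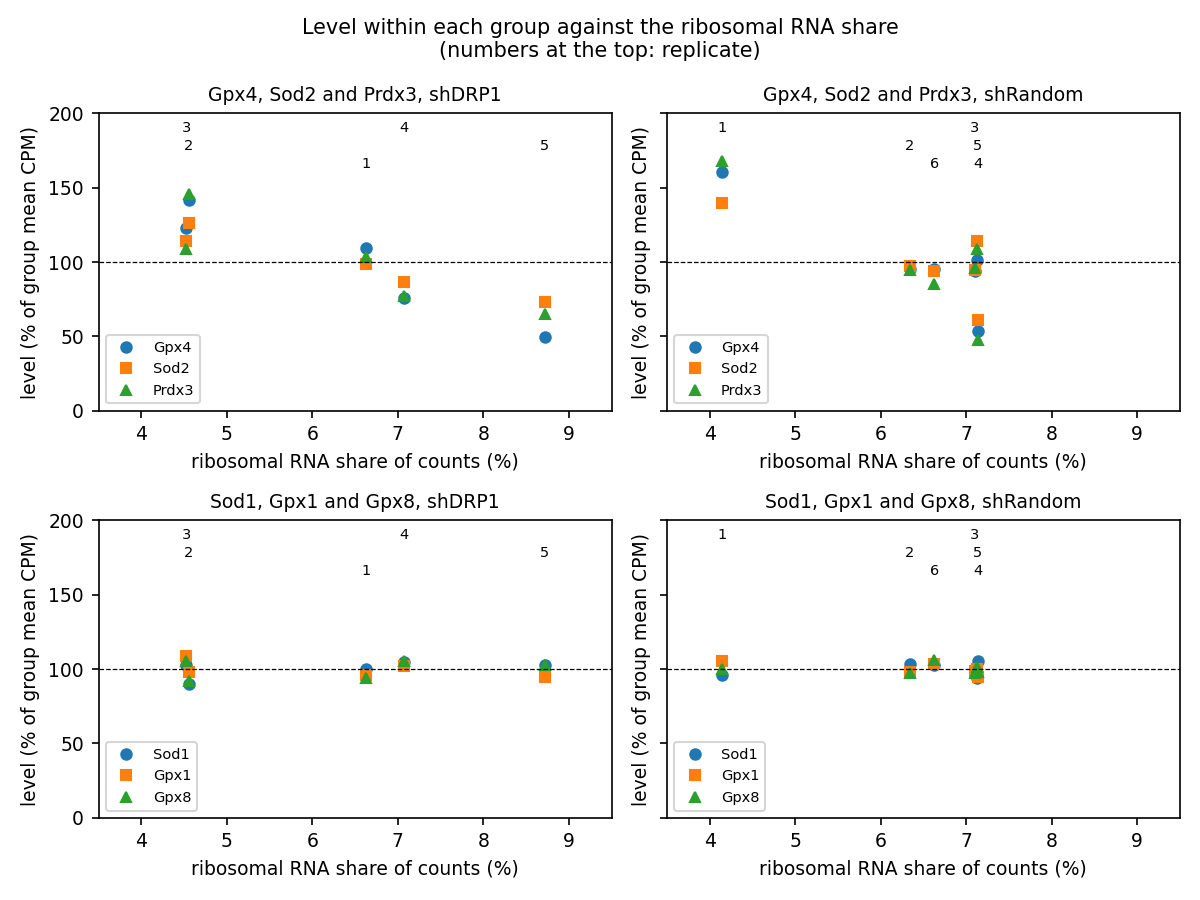
Level of each gene as a percent of its group mean CPM (vertical) against the ribosomal RNA share of counts in percent (horizontal), 1 point per gene and library, shDRP1 left of shRandom, with replicate numbers along the top. Gpx4, Sod2 and Prdx3 (upper panels) move together between libraries of a group, whereas Sod1, Gpx1 and Gpx8 (lower panels) stay close to 100%.

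Genes around these enzymes were described by 8 lists of their partners and relatives, whose counts are to be read against the 33.9% of all genes called higher and 33.3% called lower. Of 12 other peroxidases, peroxiredoxins and thioredoxins tested, 5 rose and 6 fell, where 33.9% of all genes rose and 33.3% fell (median log2 fold change -0.20, against 0.03 for all genes). Prdx4, the peroxiredoxin of the endoplasmic reticulum, averaged 196.9 ± 10.9 CPM (SD, n = 5) in shDRP1 and 72.5 ± 3.49 CPM (SD, n = 6) in shRandom, and its log2 fold change was 1.44 (adjusted p = 1.5e-11). Srxn1, which restores overoxidised peroxiredoxins, rose by 1.23 on the log2 scale (adjusted p = 4.9e-10), and the cytosolic peroxiredoxin Prdx1 rose by 0.43 (adjusted p = 6.5e-05). Prdx2 and Prdx6, also cytosolic, had log2 fold changes of -1.001 and -1.009 (adjusted p = 7.4e-10 and 1.4e-07), and Txnrd1 and Txnrd2, the cytosolic and mitochondrial thioredoxin reductases, -1.098 and -1.004 (adjusted p = 3.3e-06 and 2.3e-07, all edgeR quasi-likelihood test). Prdx1, Prdx2, Prdx6, Txnrd1 and Txnrd2 were chosen after their values were seen. Prdx2 lies on chromosome 8 where, within 2 Mb of it, 56 of 66 other genes tested were lower and 5 higher, with a median log2 fold change of -1.14.

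Of 11 genes of glutathione and NADPH recycling, glutaredoxins among them, 5 were called higher and 1 lower (median 0.13), beside 33.9% higher and 33.3% lower among all genes. The lower gene was the glutaredoxin Glrx5 at -0.44, named after its values were seen. Nnt, the transhydrogenase that makes NADPH in mitochondria, averaged 64.9 ± 3.54 CPM (SD, n = 5) in shDRP1 and 34.8 ± 1.77 CPM (SD, n = 6) in shRandom, a log2 fold change of 0.90 (adjusted p = 6.2e-09). G6pdx, the entry enzyme of the pentose phosphate pathway, rose by 0.97 (adjusted p = 3.9e-08). Gsr, which reduces oxidised glutathione, was chosen after its values were seen. It averaged 10.002 ± 5.90 CPM (SD, n = 5) in shDRP1 and 4.21 ± 1.08 CPM (SD, n = 6) in shRandom. Its log2 fold change was 1.23 (SE 0.31, adjusted p = 0.0035, all edgeR quasi-likelihood test). The shDRP1 libraries spread widely for Gsr, and the lowest, at 5.51 CPM, lay just above the highest shRandom library, at 5.28 CPM. Sod1 and Sod3 depend on copper. Of 6 genes listed for copper delivery in the cell, 3 rose and none fell at this threshold (all genes 33.9% and 33.3%). Those that rose were the copper importer Slc31a1 and its relative Slc31a2, at 0.65 and 1.35, and Atox1, at 0.16. Atox1 was named after its values were seen. The chaperone that loads Sod1, Ccs, stood at 37.2 CPM in shDRP1 and 34.9 CPM in shRandom (adjusted p = 0.241, edgeR), a gene chosen after its values were seen, and with library totals alone or upper-quartile scaling 4 of the 6 genes were called, Ccs among them.

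A list of 13 selenoproteins, which holds neither the peroxidases nor the thioredoxin reductases given above, had 8 genes higher and 1 lower (median 0.38), beside 33.9% and 33.3% of all genes. The gene of that list that fell was Dio2, the deiodinase that activates thyroid hormone, which averaged 2.74 ± 0.678 CPM (SD, n = 5) in shDRP1 and 146.1 ± 26.0 CPM (SD, n = 6) in shRandom (log2 fold change -5.71, adjusted p = 2.4e-12). Msrb1, a methionine sulfoxide reductase, rose by 1.19 on the log2 scale (adjusted p = 3.9e-11, both edgeR quasi-likelihood test). Of 9 genes listed for selenoprotein synthesis, 3 were higher and 2 lower (median 0.06), near the shares over all genes. Sephs1 was at 0.60 and Secisbp2l at 0.58, while the lower genes were Secisbp2 at -0.36 and Scly at -0.26. Sephs2, at -0.16, was not called (adjusted p = 0.411, edgeR quasi-likelihood test). Secisbp2, Scly and Sephs2 were named after their values were seen. Among 10 genes of oxidative folding in the endoplasmic reticulum, 4 rose and 1 fell (median 0.31), beside 33.9% and 33.3% of all genes. The gene that fell was the oxidase Ero1a, named after its values were seen. P4hb, the protein disulfide isomerase, rose by 0.53 and Qsox2 by 0.67. Of 19 genes of the peroxisome, where catalase resides, 6 rose and 5 fell (median 0.03), no larger a share than the 33.9% and 33.3% of all genes, with Pex11a, which takes part in peroxisome division, at 0.71. Between scalings, 8 genes of these lists crossed the threshold and none changed from higher to lower.

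**Figure D4:**
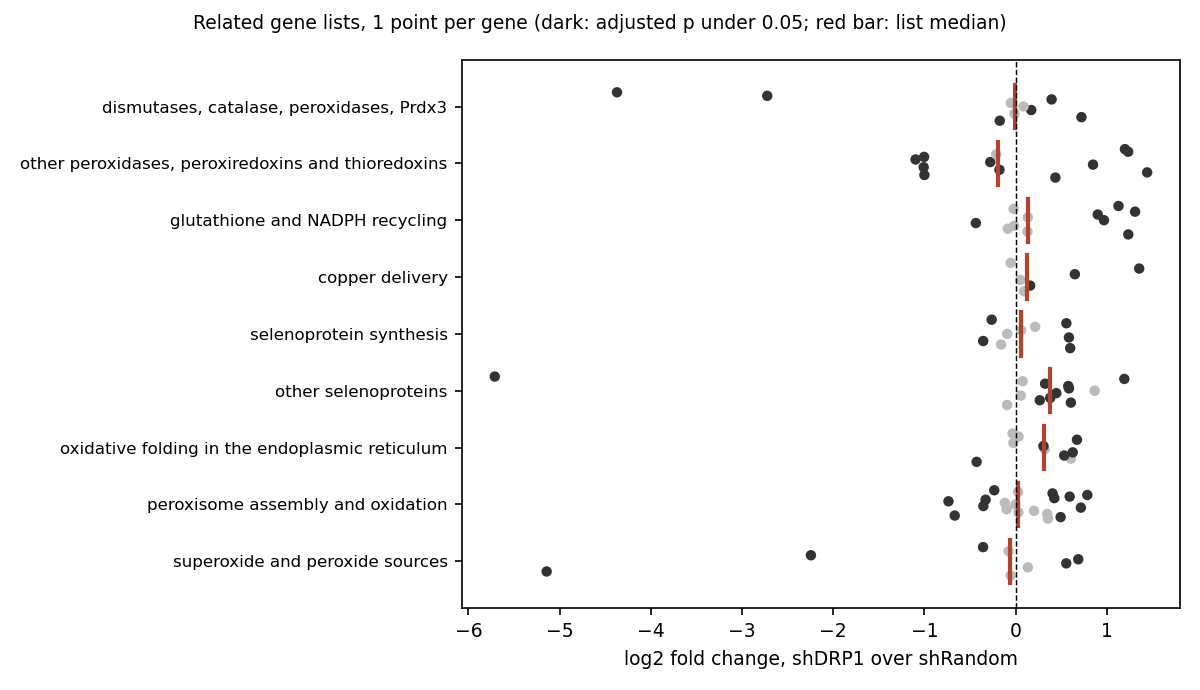
Log2 fold change, shDRP1 over shRandom, of each gene tested (points) in the enzymes at the top and in 8 related lists below; dark points passed an adjusted p of 0.05, and the red bar is the list's median. The medians lie between -0.20 and 0.38, and a few single genes, such as Gpx3, Sod3 and Dio2, lie far to the left.

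Genes with a profile like those of the secreted enzymes were sought among 8079 protein-coding genes with a mean of at least 10 CPM, by the root mean square difference over the 11 libraries of log2(CPM + 0.5) relative to the shRandom mean. Nearest to Gpx3 were the taste receptor subunit Tas1r1 (0.11), the fast-fibre alpha-actinin Actn3 (0.13) and Serinc2 (0.15). Actn3 averaged 14.1 CPM in shDRP1 and 252.0 CPM in shRandom. Tas1r1 averaged 0.740 CPM in shDRP1, close to the added 0.5, which compresses its fold change. Nearest to Sod3 were the gelatinase Mmp2 (0.10), the repressor Bcl6 (0.12) and the natriuretic peptide receptor Npr2 (0.13), with Mmp2 at 126.2 CPM in shDRP1 and 777.3 CPM in shRandom. The difference between the groups makes up most of such a profile, so likeness here is mainly likeness of fold change.

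Promoter windows, 250 bases before to 50 after an annotated start, were found in the RefSeq table of GRCm38.p6 for 9 of the 10 genes. Gpx7 is among these 9, and Sod3 had no window and was not searched. Those of Gpx1 (chr9:108338830-108339129, plus strand) and Gpx3 (chr11:54902604-54902903, plus strand) are shown, since these selenoenzymes were called in opposite directions. Capitals mark matches, on either strand, to the antioxidant response element core TGACNNNGC, the GC box GGGCGG, the CCAAT box CCAAT and the TATA box TATAAA; no match overlapped one to another motif.
Gpx1: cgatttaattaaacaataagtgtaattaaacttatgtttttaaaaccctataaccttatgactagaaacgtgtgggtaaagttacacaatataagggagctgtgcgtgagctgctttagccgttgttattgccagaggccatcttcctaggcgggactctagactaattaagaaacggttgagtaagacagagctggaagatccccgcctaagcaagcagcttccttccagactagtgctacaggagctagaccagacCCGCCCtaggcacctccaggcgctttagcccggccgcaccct
Gpx3: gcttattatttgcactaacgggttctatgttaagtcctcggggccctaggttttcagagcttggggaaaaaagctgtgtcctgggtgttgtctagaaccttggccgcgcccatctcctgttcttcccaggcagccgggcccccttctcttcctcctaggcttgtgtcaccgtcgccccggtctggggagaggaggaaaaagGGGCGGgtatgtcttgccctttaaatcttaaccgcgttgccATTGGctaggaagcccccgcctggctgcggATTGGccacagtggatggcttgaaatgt
Both windows held 1 GC box, and that of Gpx3 also held 2 CCAAT boxes. Over all 32851 windows in the table, 35.7% held a GC box, 37.4% a CCAAT box, 13.6% a TATA box and 12.4% the antioxidant response element core. That core was found in 1 of the 12 windows of the 9 genes searched, that of Sod1. A match is a run of letters and not a site shown to be bound.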

How the data were processed

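Libraries were made with Lexogen QuantSeq from total RNA, per the labels' protocols, and aligned in the BlueBee software, per the series text; the builds GRCm38 and mm10 and the tool DESeq2 (1.22.2) appear in the submitters' processing notes. For the counting program, its strand setting and the annotation the sources used here give nothing, so antisense and overlapping genes cannot be told apart. No other GENCODE M21 gene has an exon in the last 500 bases of the annotated span of any of the 9 enzymes. Transcripts that end before the end of that span were not checked. The deposited raw table holds counts per gene, not normalized, 1 column per library. The deposited normalized table was not used. Of 15113 identifiers 15080 matched a symbol. The test was edgeR's robust quasi-likelihood test (4.0.16, R 4.3.3) between groups with no covariate, on 13025 genes kept by filterByExpr and scaled by TMM, Benjamini-Hochberg adjusted over all genes tested, at a threshold of 0.05. CPM uses TMM-scaled library sizes, each standard error is the log2 fold change over the root of F, and 95% intervals use a normal quantile. PCR reads carried no molecular identifiers. In simulated data with 12851 genes tested, only 50 genes were changed at each fold. There the test recovered 14% of 1.25-fold changes, 58% of 1.5-fold, 81.6% of 2-fold and 100% of 4-fold ones, with 2 false calls among 127. In the real comparison 67.1% of genes were called, which makes the adjusted p less strict. The simulated shares therefore do not give the recovery or the false calls of the real comparison. No pair of libraries of a group was a repeat of 1 library, since chi-square over degrees of freedom was at least 5.03. By rule, the genes named are all 9 enzymes, Dnm1l, the 2 genes with the smallest adjusted p of each list, and the 3 nearest profiles of Gpx3 and Sod3. For the peroxisome list, 1 of these genes is not reported here. Prdx1, Prdx2, Prdx6, Txnrd1, Txnrd2, Gsr, Glrx5, Atox1, Ccs, Secisbp2, Sephs2, Scly, Ero1a and Nox4 stand outside that rule. These genes were named after their values were seen. The enzymes and lists were chosen with earlier results of these data known. Alternatives were other scalings, filters and tools, a stricter threshold, the replicate number as a block and leaving out each library, and, added after seeing the data, 2 that use the ribosomal RNA share.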

Additional observations from a re-analysis of the deposited data

How the results depend on the processing

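Over 22 alternatives, Gpx1 (log2 fold change 0.69 to 0.82), Gpx8 (0.35 to 0.49), Sod3 (-2.79 to -2.62) and Gpx3 (-4.44 to -4.27) kept direction and call in every one, Sod1 kept its call in 18 and Cat in 10, and both kept their direction. Gpx4, Sod2 and Prdx3 passed in none. Their sign was not settled: Gpx4 was 0.087 with library totals alone, 0.069 with upper-quartile scaling and 0.16 without the libraries of lowest and highest ribosomal RNA share in each group, where Prdx3 was 0.045, 0.029 and 0.12. Leaving out each library in turn gave -0.18 to 0.16 for Gpx4, -0.23 to 0.15 for Prdx3 and -0.023 to 0.20 for Sod2; the cause was not tested. Counts of enzymes and of genes called stayed within 1.5-fold of those reported, with 2 or 3 enzymes higher and 3 lower without any 1 library. The replicate numbers were not used as pairs in the main test. Same-numbered libraries had correlations of deviations from -0.24 to 0.44, and 1 of 5 correlated best with its own number. Other spread between libraries enters these correlations, so they cannot show whether the libraries were paired. With the replicate block, Sod1 was at -0.17 (adjusted p = 0.0803, edgeR) and Cat at 0.18 (adjusted p = 0.0959), and no other enzyme's call changed. Of the genes with a wide spread, Gpx4 had the fewest counts, 160 to 474 per library.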

Other observations

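Of 17 genes listed as sources of superoxide and peroxide, 8 passed the filter on low counts, and 2 of those were higher and 3 lower in shDRP1 (edgeR quasi-likelihood test, adjusted p under 0.05), beside 33.9% and 33.3% of all genes tested. Ncf1, a cytosolic subunit of the phagocyte NADPH oxidase, averaged 0.0766 CPM in shDRP1 and 3.04 CPM in shRandom, with 7 and 334 counts in all. Xdh, the xanthine dehydrogenase, averaged 0.643 ± 0.0806 CPM (SD, n = 5) in shDRP1 and 3.05 ± 0.820 CPM (SD, n = 6) in shRandom, with a log2 fold change of -2.25 (adjusted p = 4.8e-07, edgeR). Nox4, the oxidase that releases hydrogen peroxide, was at 8.94 CPM in shDRP1 and 9.29 CPM in shRandom (adjusted p = 0.714, edgeR). Nox4 was chosen after its values were seen.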
